A study of Saccharomyces cerevisiae with 24 samples.

Results

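RNA prepared with the RNeasy kit was compared with RNA prepared with the Direct-zol kit from the same heat-shocked yeast cultures, in 8 of the 24 libraries of the study. The 8 libraries were chosen by their labels: 4 RNeasy libraries and 4 Direct-zol libraries, all from cells kept at 37 °C for 20 min. The whole study has 4 biological replicates of 6 sample types, in which 3 isolation methods (Phenol, RNeasy and Direct-zol) were each applied to unstressed cells at 30 °C and to heat-shocked cells, and the question is whether the method alone changes transcript levels. All cultures were BY4741, a haploid laboratory strain of mating type a derived from S288c with the alleles his3Δ1, leu2Δ0, met15Δ0 and ura3Δ0, so every library carries the same deletions. Each culture was split before isolation, so RNeasy replicate 1 and Direct-zol replicate 1 hold RNA of the same cells. The libraries were poly(A)-selected, made in a single batch and read as 50-base single-end reads. The values are TPM, relative transcript abundances that are corrected for transcript length and sum to 1 fixed total per library. TPM keep no record of sequencing depth, and the study's read counts are not used here, so no counting interval is given. An RNA integrity number was measured by the study for each sample and differed between the isolation methods. Those numbers are not used here, and the part of RNA integrity in the kit difference was not tested. In these libraries RNA integrity cannot be told apart from the kit.

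Both kits catch RNA on a silica column and treat it there with DNase. They differ in the lysis: RNeasy uses a guanidine lysis buffer, and Direct-zol uses TRI reagent, a mixture of phenol and guanidine. In yeast, heat shock induces chaperone genes through the factors Hsf1 and Msn2/Msn4, while mRNAs of ribosomal proteins and of ribosome biogenesis fall. A kit comparison within heat-shocked cells holds this response constant, since both kits saw the same cells.

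The labels held in the 8 libraries. LEU2, MET17 (MET15) and URA3 were listed at 0 TPM in each of them, while HIS3, of which the his3Δ1 allele removes only a part, had 69.5 to 107 TPM. The receptor gene of mating type a cells, STE2, was between 253 and 582 TPM, against 7.14 to 14.7 TPM for STE3, its counterpart in the other mating type. SSA4, a heat-inducible Hsp70 gene, had a median of 11976 TPM in the heat-shocked kit libraries, against 48.8 TPM in the unstressed ones. The distance between libraries, 1 minus the correlation of log2 values, averaged 0.0173 among RNeasy replicates, 0.0167 among Direct-zol replicates and 0.0224 between the kits. Direct-zol replicate 1 lay farthest from the mean of its own replicates, at 0.0194, against 0.0059 to 0.0102 for the other Direct-zol libraries and 0.0084 to 0.0148 for the RNeasy libraries, and the counts below are also given without it. On the log2 scale, a transcript typically varied among replicates by an SD of 0.14 with either kit (median over transcripts). From here on, levels are scaled TPM, the deposited TPM divided by a library factor (1.18 to 1.27 for RNeasy and 1.07 to 1.13 for Direct-zol). Fold changes are differences of log2(scaled TPM + 1), RNeasy minus Direct-zol, which understates the change of low transcripts.

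The sequences of 5 ORFs, chosen after the pattern with length and GC content was seen, illustrate it with long AT-rich ORFs on the RNeasy side and short GC-rich ORFs on the Direct-zol side. They are not a sample of all calls: YBL005W-A (1323 bases, 41.0% GC) and NGL3 (1518 bases, 41.2% GC) were also among the highest. Each line gives 90 bases from the middle of the ORF, on its coding strand, from the RefSeq genome of build R64, with every G and C in capitals. TRA1 (chrVIII:308334-308423, plus strand), UBR2 (chrXII:190428-190517, minus strand) and MMS1 (chrXVI:872770-872859, plus strand) were higher with RNeasy, and PET9 (chrII:163475-163564, minus strand) and CYS3 (chrI:131347-131436, plus strand) were lower.
TRA1: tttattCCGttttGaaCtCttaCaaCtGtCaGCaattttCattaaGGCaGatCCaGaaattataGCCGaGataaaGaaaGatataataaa
UBR2: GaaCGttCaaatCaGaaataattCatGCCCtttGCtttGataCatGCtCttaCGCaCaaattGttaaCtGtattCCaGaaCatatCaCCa
MMS1: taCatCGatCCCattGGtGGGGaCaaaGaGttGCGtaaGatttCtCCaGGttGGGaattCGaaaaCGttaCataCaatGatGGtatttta
PET9: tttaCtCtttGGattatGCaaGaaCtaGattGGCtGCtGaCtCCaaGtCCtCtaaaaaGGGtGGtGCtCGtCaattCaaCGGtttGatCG
CYS3: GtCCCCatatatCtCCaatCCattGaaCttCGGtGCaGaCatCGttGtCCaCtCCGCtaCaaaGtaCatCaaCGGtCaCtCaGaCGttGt
The capitals number 27 in TRA1, 32 in UBR2, 36 in MMS1, 39 in PET9 and 43 in CYS3. Over the whole ORF, GC content was 36.8% in TRA1 (11235 bases), 35.5% in UBR2 (5619 bases) and 36.0% in MMS1 (4224 bases), against 42.9% in PET9 (957 bases) and 48.7% in CYS3 (1185 bases). MMS1 shows that a window of this size can lie above the content of its ORF.

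Between RNeasy and Direct-zol in heat-shocked cells, 272 of 6137 transcripts tested differed at an FDR under 0.01 (4.43%), by limma with 6 sample types and the replicate as factors and Benjamini-Hochberg adjustment. Of these, 226 were higher (3.68%) and 46 lower (0.75%) in RNeasy. The higher transcripts were mostly long: their median ORF was 4488 bases and 206 of the 225 with an annotated ORF had 2400 bases or more. The lower transcripts had a median ORF of 891 bases, and none reached 2400 bases. The changes were small, with a median log2 fold change of 0.46 among the higher and -0.36 among the lower transcripts, and of -0.03 over all transcripts tested. All 272 moved in the same direction in the 4 pairs of libraries from the same culture. The calls were made from these same libraries, so this agreement is no separate support. Among all transcripts tested, 25.3% were lower in RNeasy in all 4 pairs, a share to set beside the 46 lower transcripts only. The share higher in all 4 pairs is not given here. Without replicates 1, 2, 3 or 4 the test called 155, 126, 153 or 83 transcripts, of which 5, 17, 20 or 1 were lower in RNeasy, so the lower set rests on the full set of replicates. Without Direct-zol replicate 1 alone, 216 were higher and 18 lower, and with each of the 8 libraries left out singly the lower count ran between 7 and 58, steps chosen after seeing the data. When the replicate was fitted within each treatment instead of across treatments, 424 were called (6.91%), 270 higher and 154 lower, so that the share of calls that were higher was 63.7%, against 83.1%. On TPM as deposited, without scaling between libraries, the median moved up by 0.15 and 455 of 462 calls were higher in RNeasy, against 226 of 272 with scaling. Within that shift, all 272 transcripts kept their sign.

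The kit difference followed ORF length. Among ORFs of 4800 bases or more, 85 of 121 were higher in RNeasy (70.2%) and none was lower, with a median log2 fold change of 0.53. In 84 of the 121 every RNeasy library lay above every Direct-zol library, which held for 7.3% of all transcripts tested. Of the ORFs of 2400 to under 4800 bases, 121 of 768 were higher (15.8%) and none lower, with a median of 0.16. The median was -0.02 for 1200 to under 2400 bases (13 higher and 14 lower of 2042), -0.09 for 600 to under 1200 bases (3 higher and 23 lower of 1746), -0.13 for 300 to under 600 bases (3 higher and 7 lower of 828) and -0.18 under 300 bases (none higher and 2 lower of 262). Long ORFs were also measured more tightly, with a median standard error of 0.08 from 4800 bases up, against 0.24 under 300 bases, so counts of calls compare less directly between classes than medians do. The order of the medians held in each culture from 300 bases up. From replicate 1 to replicate 4, the median of the longest class was 0.41, 0.58, 0.49 and 0.61, and that of the class of 300 to under 600 bases was -0.12, -0.13, -0.13 and -0.16. Without replicate 4, 48 of the 121 longest ORFs were called higher, and without any of the others between 62 and 72.

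**Figure D1:**
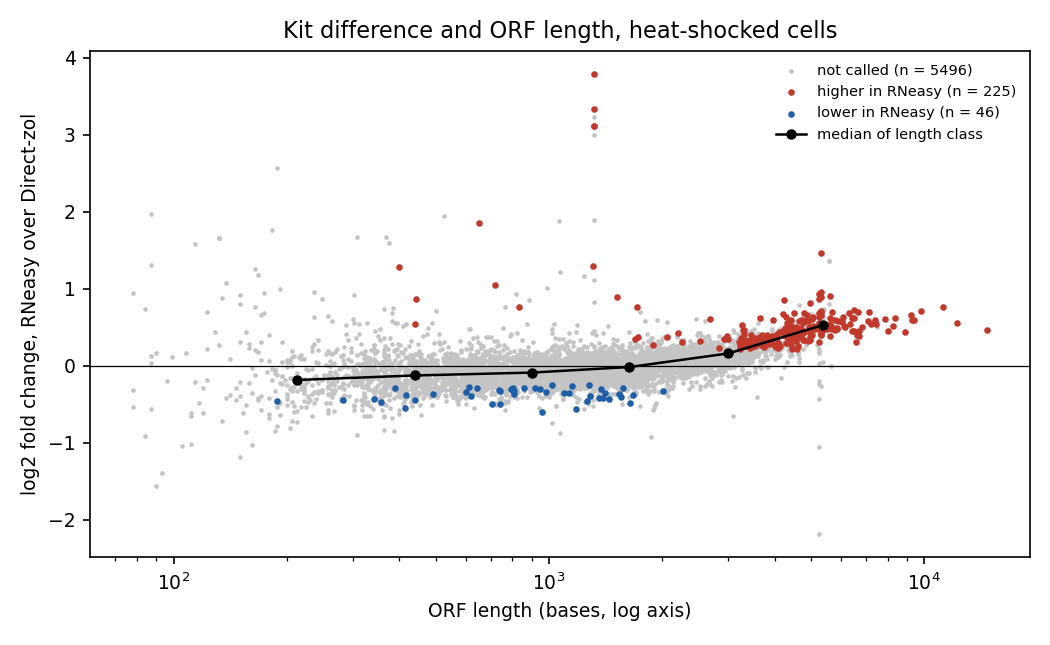
Log2 fold change of each transcript with an annotated ORF (RNeasy over Direct-zol, heat-shocked cells, vertical axis) against its ORF length in bases (horizontal log axis). Red points are the 225 called higher and blue points the 46 called lower in RNeasy, grey points were not called, and black points are the medians of 6 length classes, which run from -0.18 for the shortest to 0.53 for the longest.

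**Figure D2:**
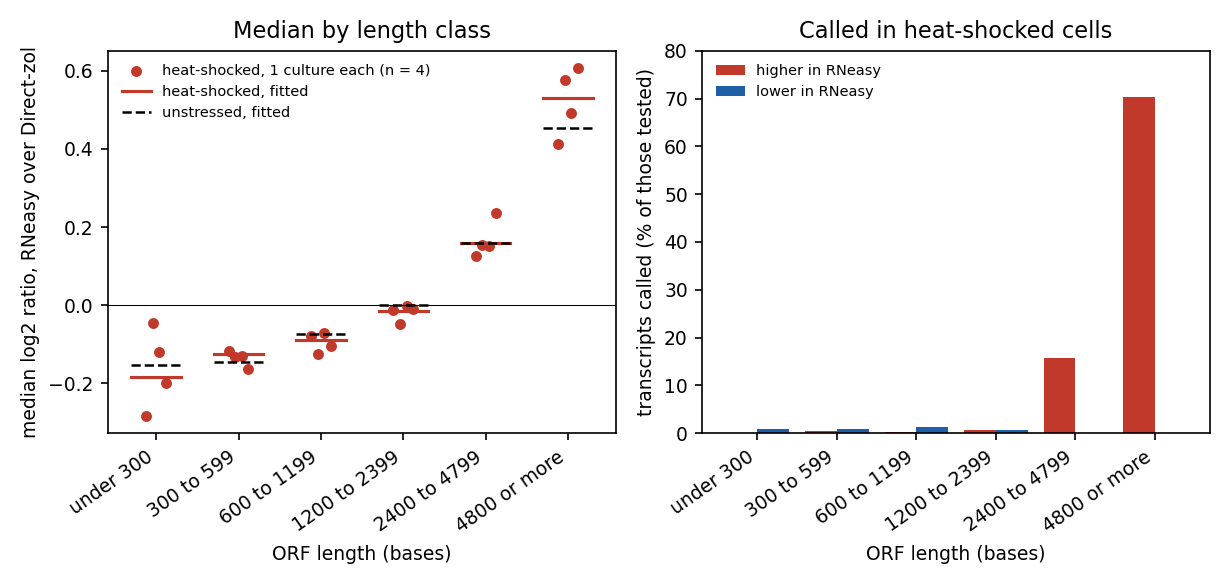
Left, median log2 ratio of RNeasy over Direct-zol by ORF length class (bases), with 1 red point for each of the 4 heat-shocked cultures, a red line for the fitted median and a dashed black line for the fitted median in unstressed cells. Right, the percentage of each class called higher (red) or lower (blue) in RNeasy in heat-shocked cells, 70.2% of the longest class being higher.

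In shares of the transcript pool the long ORFs are minor. ORFs of 4800 bases or more held 0.581 ± 0.033% of all TPM in RNeasy libraries and 0.372 ± 0.030% in Direct-zol libraries (SD, n = 4 each). The range of 0.543 to 0.618% in RNeasy did not overlap that of 0.341 to 0.411% in Direct-zol. For ORFs of 2400 to under 4800 bases the shares were 6.42 ± 0.20% with RNeasy, against 5.40 ± 0.14% with Direct-zol (± SD over 4 libraries). These shares need no scaling between libraries.

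The 10 longest ORFs of the table, a set chosen after the length pattern was seen, were all higher in RNeasy. REA1 (also called MDN1), a giant AAA ATPase of ribosome assembly with an ORF of 14733 bases, had 7.84, 6.13, 7.06 and 7.98 scaled TPM in RNeasy libraries, against 6.22, 4.33, 4.66 and 4.82 in Direct-zol libraries. The groups overlapped by 1 library (log2 fold change 0.46, standard error 0.08, adjusted p = 0.0013). DYN1, the heavy chain of cytoplasmic dynein, had 13.6, 12.6, 11.7 and 13.4 scaled TPM in RNeasy, against 8.85, 8.34, 7.61 and 8.76 in Direct-zol. Every RNeasy library exceeded every Direct-zol library (log2 fold change 0.56, adjusted p = 5.8e-06). TRA1, the large subunit shared by the SAGA and NuA4 acetyltransferase complexes, had 22.4, 20.5, 18.4 and 21.5 scaled TPM in RNeasy, against 12.9, 10.8, 12.1 and 11.1 in Direct-zol. Its log2 fold change, 0.77 (standard error 0.06, adjusted p = 1.8e-07), was the highest of these 10. TOM1, an E3 ubiquitin ligase, had 41.9, 38.6, 35.4 and 39.8 scaled TPM in RNeasy, against 26.1, 22.0, 23.8 and 22.0 in Direct-zol (log2 fold change 0.71, adjusted p = 1.8e-07), again with no overlap. The other members were VPS13 (0.60), which carries lipids between membranes, the Ras GTPase-activating proteins IRA1 (0.59) and IRA2 (0.66), the lipid transfer protein CSF1 (0.44), the DNA damage kinase TEL1 (0.62) and the cortical anchor NUM1 (0.52), with adjusted p between 2.3e-05 and 0.0013. IRA2, TEL1 and REA1 were the members whose groups overlapped, and without replicate 4 their adjusted p was 0.035, 0.07 and 0.041. CSF1 also lost its call without replicate 4 (adjusted p = 0.012).

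Not every long ORF moved. Apart from retrotransposon ORFs, 91 ORFs of 4800 bases or more were tested and 72 of them were called higher, while the 91 log2 fold changes ranged from 0.00 to 1.37. FAS2, the alpha subunit of fatty acid synthase, with an ORF of 5664 bases and a mean of 98.7 TPM, was at the bottom with a log2 fold change of 0.00 (standard error 0.09, adjusted p = 1.00). The gene of its partner subunit, FAS1, with an ORF of 6156 bases, was higher in RNeasy, with 102, 94.8, 76.8 and 89.1 scaled TPM against 77.3, 59.9, 54.4 and 62.3 in Direct-zol. The FAS1 groups overlapped by 1 Direct-zol library, and the log2 fold change was 0.51 (standard error 0.08, adjusted p = 4.9e-04, and 0.02 without replicate 4). Other long ORFs that were not called include RPO21, the largest subunit of RNA polymerase II (0.27, adjusted p = 0.10), CHC1, the clathrin heavy chain (0.34, adjusted p = 0.011), and the ribosome assembly genes UTP20 (0.51), RRP5 (0.55), URB1 (0.61) and UTP10 (0.65). The assembly genes had standard errors from 0.14 to 0.24, against a median of 0.08 in this length class. The YRF1 helicase genes of the Y′ telomeric elements, copies that share sequence, had values from 0.41 to 1.37, none called.

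GC content went with the difference as well. Divided into quintiles by GC content, ORFs had medians of 0.13, 0.03, -0.04, -0.09 and -0.17, from the lowest quintile (26.0 to 37.4% GC) to the highest (43.0 to 59.1%). The lowest quintile held 99 transcripts called higher and none called lower, and the highest quintile 2 called higher and 29 called lower. Across 5767 ORFs, which are not independent replicates, the log2 fold change correlated with GC content at r = -0.37 (rho = -0.53) and with log2 ORF length at r = 0.33 (rho = 0.46), and GC content with log2 length at r = -0.22. Within the class of 2400 to under 4800 bases, 55 of 250 ORFs in the lowest quintile (22.0%) and 51 of 207 in the second (24.6%) were called higher. The share fell from there, with 12 of 173 (6.94%), 3 of 96 and 0 of 42. Above 4800 bases the medians of the 5 quintiles lay between 0.41 and 0.63, but the upper 3 quintiles held only 8, 9 and 8 ORFs. Of the 8 in the highest quintile, with a median of 2.53 TPM, none was called.

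**Figure D3:**
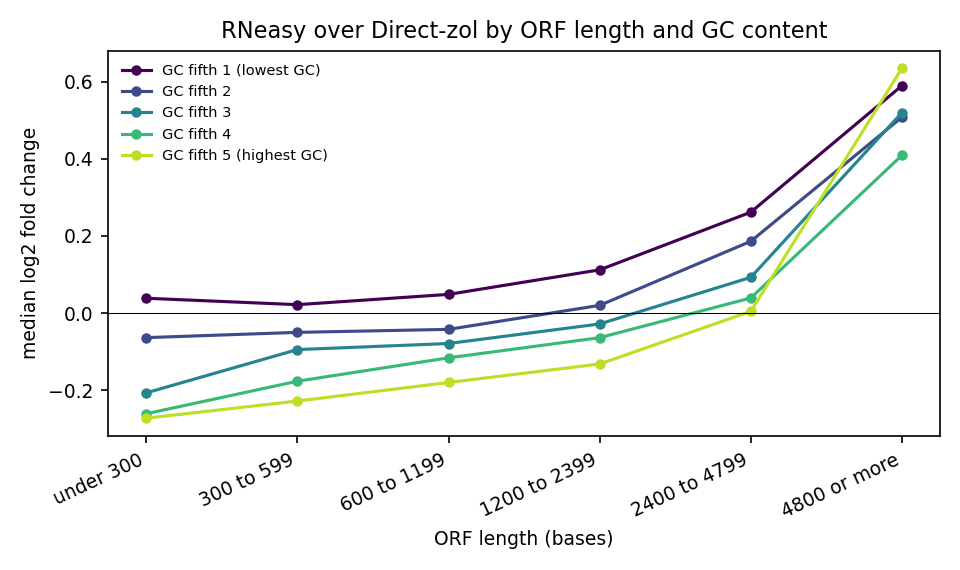
Median log2 fold change (RNeasy over Direct-zol, heat-shocked cells, vertical axis) by ORF length class in bases (horizontal axis), with a line for each quintile of GC content. Below 4800 bases the lines run in order of GC content, the lowest GC on top, and in the class of 2400 to under 4800 bases they lie between 0.00 and 0.26.

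The higher and the lower set differed in abundance. Transcripts higher in RNeasy had a median of 37.4 TPM over the 8 libraries and a maximum of 360.2 TPM, and transcripts lower in RNeasy had a median of 214 TPM, against 55.5 TPM for those not called. By mean level, 2 of 540 transcripts under 5 TPM were called higher, 40 of 691 from 5 to 20 TPM, 169 of 3078 from 20 to 100 TPM, 15 of 1702 from 100 to 1000 TPM and 0 of 126 above. Called lower were 0, 1, 10, 34 and 1 of the same classes. The median standard error was 0.31 under 5 TPM, against 0.09 from 20 to 100 TPM, so these counts compare less directly at low levels. The median log2 fold change was -0.11 from 100 to 1000 TPM and -0.22 above 1000 TPM, where every RNeasy library lay below every Direct-zol library for 36 of 126 transcripts, which held for 7.38% of all transcripts tested. ORFs of this top class had a median of 912 bases and 43.5% GC, against 1218 bases and 39.8% over all tested. From 4800 bases up the medians were 0.55, 0.51 and 0.49 at 5 to 20, 20 to 100 and 100 to 1000 TPM. In ORFs of 2400 to under 4800 bases they were 0.21, 0.17 and 0.08. In those of 1200 to under 2400 bases they were 0.02, 0.01 and -0.07. The most abundant transcript called was EFB1, a subunit of translation elongation factor 1, at 1229, 1380.1, 1324 and 1379 scaled TPM in RNeasy, against 1738, 1678, 1616 and 1939 in Direct-zol. The groups did not overlap (log2 fold change -0.39, standard error 0.08, adjusted p = 0.0051, and 0.12 without replicate 4). The span of EFB1 also holds the small nucleolar RNA gene SNR18, and the EFB1 ORF shares no 50-base sequence with another gene. TDH3, the main glyceraldehyde-3-phosphate dehydrogenase gene, had 15835 to 18990.3 scaled TPM in RNeasy and 20981 to 23929 in Direct-zol. These groups did not overlap either, yet the log2 fold change of -0.40 had a standard error of 0.20 and was not called (adjusted p = 0.21).

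Predicted membrane proteins were grouped by their hydrophobic windows of 19 residues. The share called higher was 2.94% of ORFs with no window, 4.48% with 1, 7.59% with 2 to 6 and 9.63% with 7 or more, while the medians were -0.04, -0.02, -0.00 and 0.02. Among ORFs of 2400 to under 4800 bases the shares were 13.8, 14.1, 19.8 and 32.7%, with medians of 0.14, 0.19, 0.19 and 0.22. Among ORFs of 1200 to under 2400 bases no such order was seen, with shares of 0.73, 0.62, 0.52 and 0%, nor from 4800 bases up, with 65.6, 60.9, 87.1 and 66.7%, the last of only 6 ORFs.

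Some of the highest log2 fold changes belonged to ORFs under 2400 bases. Among those called, with the same sign in the 4 pairs and a mean of at least 10 TPM, YNR066C had the largest log2 fold change of any annotated ORF that shares no 50-base sequence with another gene. YNR066C, an uncharacterized ORF of 1311 bases and 36.5% GC on chromosome XIV, had 16.03, 9.98, 13.1 and 14.1 scaled TPM in RNeasy, against 6.18, 3.998, 4.46 and 4.62 in Direct-zol. The lowest RNeasy library was above the highest Direct-zol library (log2 fold change 1.29, standard error 0.11, adjusted p = 3.5e-07). NGL3, annotated as a 3′-5′ poly(A) RNA exonuclease, with an ORF of 1518 bases and 41.2% GC on chromosome XIII, had 25.7, 25.6, 27.5 and 24.7 scaled TPM in RNeasy, against 12.1, 14.3, 13.8 and 13.7 in Direct-zol (log2 fold change 0.89, standard error 0.09, adjusted p = 3.2e-06), with a wide gap between the groups. The 2 highest with longer ORFs of unique sequence were UBR2 and MMS1, both AT-rich. UBR2, the ubiquitin ligase that marks the proteasome regulator Rpn4, had 29.2, 29.0, 28.3 and 32.6 scaled TPM in RNeasy, against 16.6, 13.5, 16.3 and 15.2 in Direct-zol (log2 fold change 0.91, adjusted p = 1.1e-06). MMS1, a subunit of a cullin ubiquitin ligase needed for replication repair, had 31.8, 23.9, 23.2 and 31.4 scaled TPM in RNeasy, against 18.1, 11.98, 15.5 and 13.6 in Direct-zol (log2 fold change 0.86, adjusted p = 4.6e-05). In UBR2 and MMS1 too the groups did not overlap. All 4 genes stayed past the threshold with any replicate left out, the weakest being MMS1 at an adjusted p of 0.0085 without replicate 4.

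Only 19 of the transcripts called higher had an annotated ORF under 2400 bases. Besides YNR066C and NGL3, those at 0.54 or more that are not retrotransposon ORFs, named after their values were seen, were YEL076C (1.85) and YPR202W (1.05), which each share 92.5% of their 50-base sequences with other genes, SWC7 (1.29), a subunit of the SWR1 complex that deposits the histone variant H2A.Z, YDR344C (0.87), the replication factor MCM10 (0.76), RRG8 (0.76), needed for mitochondrial genome maintenance, and MDJ2 (0.54), a J-domain protein of mitochondrial import. When the trend with ORF length was removed in each library, a step chosen after the data were seen, 33 of 5767 transcripts were called, 21 higher and 12 lower, against 271 of the same transcripts before. Only 27 were called both before and after, of which REA1 and CSF1 changed direction. SWC7, YNR066C, NGL3, MCM10, RRG8, YDR344C and MDJ2 were among them, and so were UBR2 (0.42, adjusted p = 0.0042) and MMS1 (0.51, adjusted p = 0.0095). TRA1 (-0.07) and TOM1 (-0.06) were near 0 after this step, and REA1 (-0.51), CSF1 (-0.28) and FAS2 (-0.49) were called lower.

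YLR154W-E, which the reference annotation does not list, had the highest log2 fold change after YBL005W-A among the called transcripts of at least 10 TPM. It had 48.8, 51.6, 51.2 and 56.5 scaled TPM in RNeasy libraries, against 4.48, 4.31, 6.26 and 10.4 in Direct-zol libraries, so that every RNeasy library was far above every Direct-zol library (log2 fold change 2.92, standard error 0.41, adjusted p = 9.4e-05). In unstressed cells it had 20.5 ± 0.895 scaled TPM with RNeasy, against 3.84 ± 1.98 with Direct-zol (± SD over 4 libraries).

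Retrotransposon ORFs were the gene list with the highest median. Ty elements are mobile copies of retroviral type, whose long mRNA encodes a Gag protein and, by a frameshift, a Gag-Pol fusion. Of 92 such ORFs deposited, 49 were tested, and 18 were called higher and none lower, with a median log2 fold change of 0.53. The 33 Gag-Pol ORFs had a median of 0.51 and 14 calls. Of the 30 retrotransposon ORFs of 4800 bases or more, 13 were called higher (43.3%), 17 were higher in all 4 pairs and the log2 fold changes ran from -2.19 to 1.47. Of the 91 other ORFs of that length, 79.1% were called higher and 87 were higher in all 4 pairs, with a median of 0.54. YCL019W, a Gag-Pol ORF of 5313 bases on chromosome III, had 14.7, 13.5, 14.6 and 13.5 scaled TPM in RNeasy, against 6.07, 3.28, 4.16 and 4.55 in Direct-zol (log2 fold change 1.47, standard error 0.17, adjusted p = 7.6e-06), with no overlap. YMR045C had 82.4, 62.7, 72.8 and 83.6 scaled TPM in RNeasy, against 47.2, 39.7, 37.7 and 38.7 in Direct-zol (log2 fold change 0.87, adjusted p = 1.8e-07). YFL002W-A (0.95) and YGR161W-B (0.90) had the same values in every RNeasy library and in all Direct-zol libraries but replicate 2 (21.3 and 25.2 scaled TPM). Their sequences are shared in full with other ORFs, so they are not 2 separate observations. Of the transcripts tested, 31 had values identical to those of another, and calls among such copies are not independent. YBL005W-A, a Gag ORF of 1323 bases, had the largest log2 fold change of the comparison, with 71.2, 58.6, 58.5 and 49.99 scaled TPM in RNeasy, against 3.61, 0.215, 12.4 and 3.71 in Direct-zol (3.79, standard error 0.64, adjusted p = 5.7e-04, and 0.02 without replicate 1). The Gag ORF YNL054W-A had 7.53, 5.29, 30.8 and 5.11 scaled TPM in RNeasy and was listed at 0 in every Direct-zol library. These Gag ORFs lie within longer Gag-Pol ORFs and share all of their 50-base sequences with other copies, so a 50-base read cannot be assigned to 1 of them, and the values depend on how RSEM divided such reads. With only the 5381 ORFs that share no 50-base sequence, chosen after the data were seen, 253 were called, 203 higher and 50 lower.

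Of the 46 transcripts lower in RNeasy, 14 carry the annotation term mitochondrion (30.4%), which 18.2% of all transcripts tested and 27.4% of those higher in RNeasy carry too. PET9, the major ADP/ATP carrier of the mitochondrial inner membrane, had 209.5, 222, 161 and 172 scaled TPM in RNeasy, against 316, 312, 239 and 287.8 in Direct-zol. The groups did not overlap, and the log2 fold change of -0.60 (standard error 0.12, adjusted p = 0.0023) was the lowest among those named. CYS3, the cystathionine gamma-lyase that makes cysteine, had 261, 332, 371 and 285 scaled TPM in RNeasy, against 378, 489, 493 and 476 in Direct-zol, with a narrow gap between the groups (log2 fold change -0.56, standard error 0.11, adjusted p = 0.0019). HEM1, the first enzyme of heme synthesis, had 70.1, 78.7, 84.1 and 66.6 scaled TPM in RNeasy, against 106, 107, 99.3 and 105 in Direct-zol (log2 fold change -0.48, adjusted p = 7.4e-04). BOL3, a factor of mitochondrial iron-sulfur protein maturation, had 42.7, 46.7, 41.5 and 42.5 scaled TPM in RNeasy, against 65.4, 62.6, 56.5 and 57.0 in Direct-zol (log2 fold change -0.47, adjusted p = 5.5e-04). In both genes all RNeasy values lay below all Direct-zol values. The other lowest members were RPA14 (-0.54), a subunit of RNA polymerase I that overlaps another ORF so that their reads may be mixed, YIP4 (-0.49), a membrane protein of vesicle traffic, the phosphatase DOG1 (-0.49), PDA1 (-0.46), of pyruvate dehydrogenase, ATP15 (-0.45), of the mitochondrial ATP synthase, and RTC6 (-0.45), a putative mitochondrial ribosomal protein. Next to EFB1, the most abundant transcripts called were SHM2 (-0.35), the cytosolic serine hydroxymethyltransferase, with 685 ± 55.6 scaled TPM in RNeasy and 875 ± 47.1 in Direct-zol, ATP2 (-0.37), with 518 ± 31.9 for RNeasy and 669 ± 27.8 for Direct-zol, SCS2 (-0.31), with 447 ± 27.9 for RNeasy and 555 ± 22.2 for Direct-zol, and ARC1 (-0.35), with 425 ± 30.8 for RNeasy and 544 ± 42.7 for Direct-zol (± SD, n = 4 each). BOL3 was the only transcript of the lower set that stayed past the threshold without each replicate in turn, and PET9, CYS3 and HEM1 reached adjusted p of 0.067, 0.06 and 0.025.

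**Figure D4:**
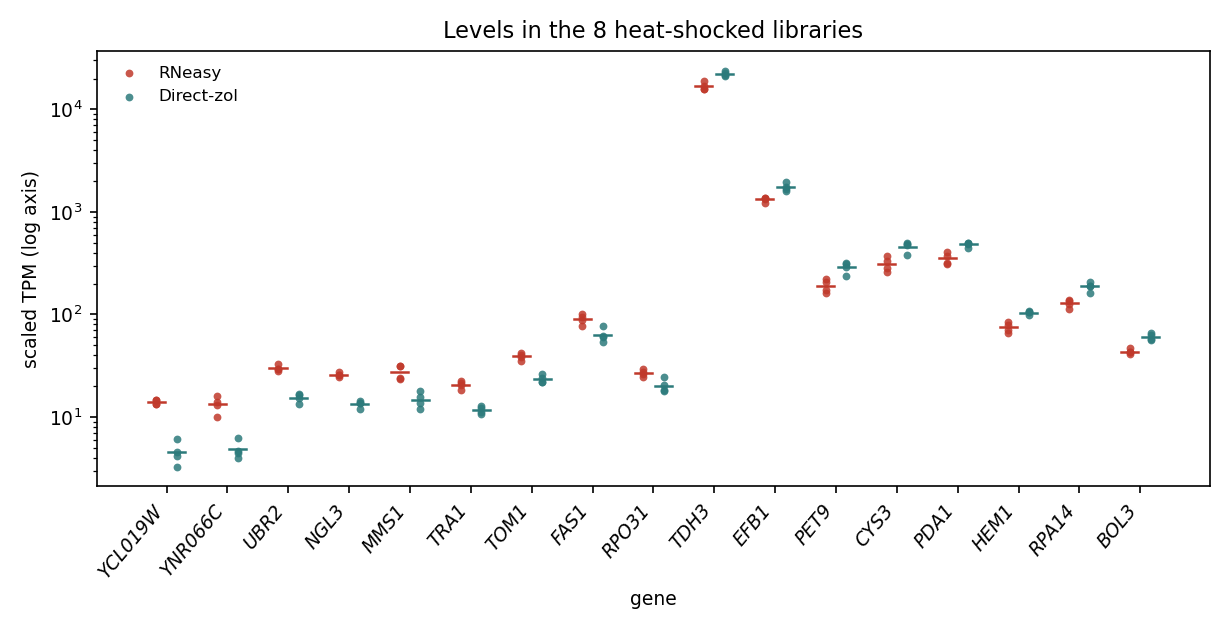
Scaled TPM (log axis) of 17 genes in the 8 heat-shocked libraries, with RNeasy in red on the left and Direct-zol in green on the right of each gene, a point for each library and a bar for the mean of 4. YCL019W to RPO31 were called higher in RNeasy, TDH3 was not called, and EFB1 to BOL3 were called lower.

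By function, the largest groups of short abundant mRNAs had medians below 0, and their calls depended on the replicate term. None of 82 members of the large-subunit list and none of 56 small-subunit ribosomal protein mRNAs was called in either direction, with medians of -0.32 and -0.31, against -0.03 over all transcripts tested. The large-subunit list, made by gene name, also took in RPP1, a subunit of RNase P, and its other 81 members had a median of -0.32. With the replicate fitted within each treatment, 12 of the large-subunit list and 5 of the small-subunit mRNAs were called lower and none higher. In that fit 154 of all 6137 transcripts tested were lower and 270 higher. In all 4 pairs RNeasy was below Direct-zol for 85.4% of the large-subunit list and 80.4% of the small-subunit list, as it was for 25.3% of all transcripts tested. RPL39 had 553 ± 165 scaled TPM in RNeasy and 786 ± 251 in Direct-zol (log2 fold change -0.50, adjusted p = 0.24), and RPS26A 953 ± 232 in RNeasy and 1286 ± 444 in Direct-zol (-0.40, adjusted p = 0.22; SD, n = 4 each). The standard errors were 0.26 for RPL39 and 0.20 for RPS26A. Of 20 glycolysis and fermentation genes none was called, with a median of -0.28, and neither was any of 11 histone genes (median -0.27), where HHT2 had 1002 ± 166 scaled TPM in RNeasy and 1239.8 ± 162 in Direct-zol. Of 12 translation elongation factors only EFB1 was called (median -0.27). Of 46 nuclear genes of the respiratory chain, the ATP synthase and its carriers, PET9, ATP15 and ATP2 were called lower (6.52%) and none higher. The median of this list was -0.14. On TPM as deposited these medians shift up with all others by about 0.15.

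The heat shock response lists had no call between the kits, and with another replicate term some calls, all of them lower in RNeasy. Of their 102 genes, 11 have ORFs of 2400 bases or more. With the replicate fitted across treatments 0 were called, beside 3.68% higher and 0.75% lower over all transcripts tested. With the replicate fitted within each treatment 8 of the 102 were called, all lower in RNeasy. They were 4 of the cytosolic chaperone list, 2 of trehalose and glycogen, 1 of the mitochondrial list and 1 of endoplasmic reticulum folding. In that fit 6.91% of all 6137 transcripts tested were called, 270 higher and 154 lower. The lists are 32 cytosolic chaperone genes (median -0.16), 11 mitochondrial chaperone genes (-0.04), 24 endoplasmic reticulum folding genes (-0.04), 18 small stress protein genes (-0.12) and 17 trehalose and glycogen genes (-0.12). SSA4 had 6887, 10169.6, 10786 and 9577 scaled TPM in RNeasy, against 6767, 11194, 11397 and 9917 in Direct-zol, and replicate 1 was the lowest with either kit (log2 fold change -0.06, standard error 0.18, adjusted p = 0.87). HSP12 had 20809 to 26135 scaled TPM in RNeasy and 25564 to 29146 in Direct-zol (log2 fold change -0.28, standard error 0.18, adjusted p = 0.35). The other genes that stand for their lists by abundance were HSP10 (-0.47, adjusted p = 0.077), KAR2 (-0.35, adjusted p = 0.24) and UGP1 (-0.26, adjusted p = 0.22). HSP10, HSP12, KAR2 and UGP1 were lower in RNeasy in all 4 pairs, and KAR2 (adjusted p = 0.0074) and UGP1 (adjusted p = 0.0086) were called with the replicate fitted within each treatment.

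Outside the retrotransposon ORFs, 3 lists had members called higher, all of them ORFs of 2400 bases or more. Of 39 Mediator and SAGA subunits 4 were called higher and none lower, with a median of -0.02, and these 4 were among the 8 members of 2400 bases or more: TRA1, SRB8 (0.63), SSN2 (0.39) and SPT7 (0.26). SRB8, of the kinase module of Mediator, had 21.4, 16.8, 17.6 and 23.1 scaled TPM in RNeasy, against 16.1, 9.61, 12.7 and 11.5 in Direct-zol (adjusted p = 0.0017), and its groups were just apart. Of 13 fatty acid synthesis genes FAS1 and ACC1 were called higher, and FAS2 is the only other member above 2400 bases. ACC1, the acetyl-CoA carboxylase that starts the pathway, had 102, 117, 105 and 108 scaled TPM in RNeasy, against 81.8, 81.8, 72.0 and 78.7 in Direct-zol (log2 fold change 0.45, adjusted p = 4.3e-04), without overlap. Of 31 RNA polymerase subunits RPO31, the largest subunit of polymerase III, was called higher, with 29.5, 26.2, 24.7 and 27.6 scaled TPM in RNeasy, against 24.3, 20.3, 17.996 and 18.4 in Direct-zol (log2 fold change 0.40, adjusted p = 1.8e-04), and the small RPA14 was called lower. Another 7 lists with at least 5 members of that length had no member called higher, where 23.2% of all ORFs of that length were. None of the 107 ribosome biogenesis genes was called. With the replicate fitted within each treatment 5 of them were higher, beside 270 of all 6137 transcripts tested. The 18 long members of this list had a median of 0.20, beside the 0.19 of all such ORFs. The actin patch had 9 long members, cell wall proteins 7, trehalose and glycogen enzymes 6, and translation elongation factors, translation initiation factors and aminoacyl-tRNA synthetases 5 each.

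The remaining lists had at most 1 call. RPN10, a ubiquitin receptor of the proteasome, was lower (-0.33, adjusted p = 0.0088), the only call among 34 proteasome genes. GAS3, a cell wall glucanosyltransferase, was lower (-0.29, adjusted p = 0.0044) among 42 cell wall genes, and DPS1, the aspartyl-tRNA synthetase, was lower (-0.38, adjusted p = 0.0064) among 21 aminoacyl-tRNA synthetases. No member was called among mitochondrial ribosomal proteins, ergosterol synthesis, hexose transporters, amino acid permeases, the proton pump, the actin patch and translation initiation factors, for which RSM18 (-0.05), ERG25 (-0.34), HXT7 (-0.00), DIP5 (-0.02), PMA1 (-0.11), ACT1 (-0.35) and SUI1 (-0.15) were the most abundant members, and NOP10 (-0.08) was the most abundant of ribosome biogenesis. ACT1, often used as a reference gene, had 1410.3, 1648, 1508 and 1341 scaled TPM in RNeasy, against 1894, 1948, 1701 and 1987 in Direct-zol. All RNeasy values were below all Direct-zol values, with an adjusted p of 0.028.

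**Figure D5:**
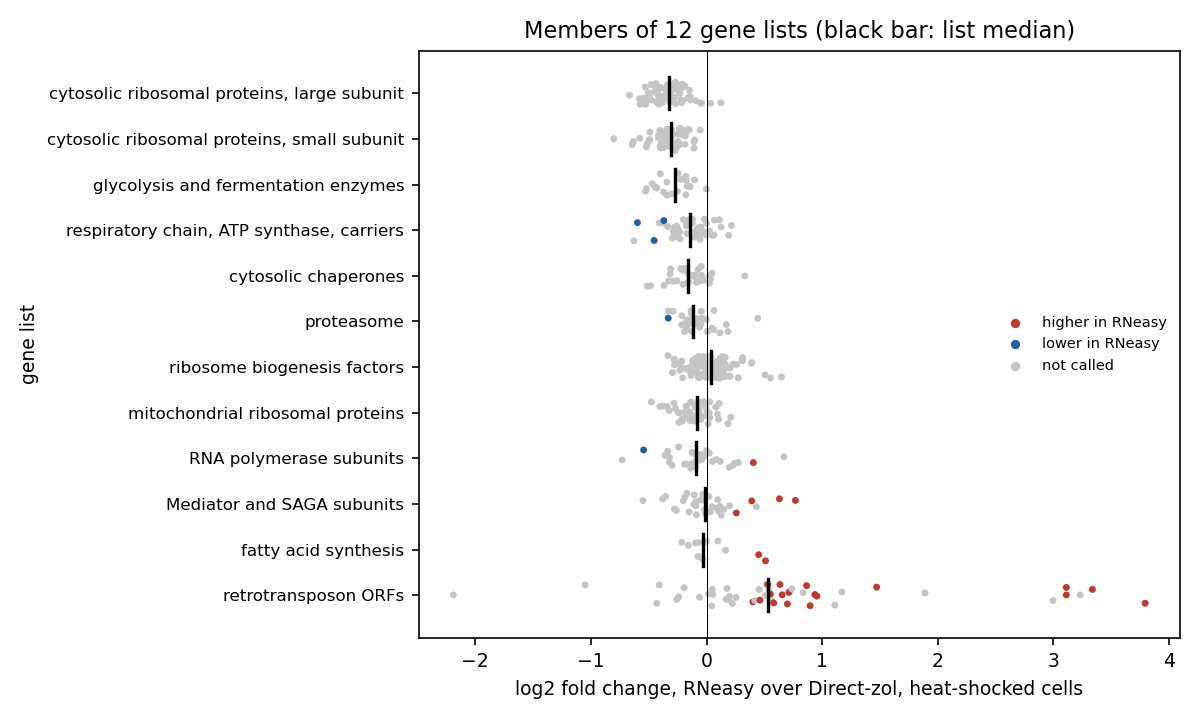
Log2 fold change (RNeasy over Direct-zol, heat-shocked cells, horizontal axis) of each tested member of 12 gene lists (vertical axis), with members called higher in red, called lower in blue and not called in grey, and a black bar for the list median. The ribosomal protein lists lie to the left at -0.32 and -0.31 with no member called, and retrotransposon ORFs lie to the right at 0.53.

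The annotation terms of the reference were described in the same way. The medians of 25 terms lay between -0.12 for translation and 0.05 for the cytosolic ribosome, a term that matched only 22 transcripts and is not the ribosomal protein lists above. For the nucleus, 82 of 1551 transcripts were called higher and 13 lower, and 78 of those 82 had ORFs of 2400 bases or more. For the mitochondrion it was 62 higher and 14 lower of 1116, and 60 of the 62 were that long. Of all ORFs of 2400 bases or more 23.2% were called higher, against 25.7% of those of the nucleus, 33.3% of those of the mitochondrion and 7.69% of those of the nucleolus. Kinase genes had 17 higher (8.67%, beside 3.68% of all transcripts tested) and none lower of 196, all 17 of that length, which is 29.3% of the kinase ORFs that long. Protein folding had none higher and 1 lower of 99.

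The kits differed in much the same way in unstressed cells, which are separate samples of the same 4 cultures. There, 239 of 6137 transcripts were called (3.89%), 180 higher (2.93%) and 59 lower (0.961%) in RNeasy, and 186 were called in both conditions, 68.4% of the heat-shocked calls and 77.8% of the unstressed calls, all in the same direction. Of the 226 transcripts higher in heat-shocked cells, 223 were higher in all 4 unstressed pairs, as were 19.3% of all transcripts tested, and of the 46 lower ones 45 were lower in all 4 pairs, as were 26.3% of all tested. The median of the longest ORF class in unstressed cells was 0.45, against -0.14 for 300 to under 600 bases. TRA1 had 25.1 ± 1.79 scaled TPM in RNeasy and 15.6 ± 0.256 in Direct-zol without heat (log2 fold change 0.65), and PET9 had 219 ± 39.7 with RNeasy, against 338 ± 49.0 with Direct-zol (log2 fold change -0.63, ± SD over 4 libraries).

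No transcript was called for a kit difference that changed with heat shock. In limma, 0 of 6137 were called for the difference between the heat-shocked and the unstressed kit comparison, and the smallest adjusted p was 0.9998. An unadjusted p under 0.05 was found for 69 (1.12%), where chance gives about 1 in 20. With fewer small p-values than chance gives, 0 calls do not show that the kit difference was unchanged by heat. Calls in 1 condition alone therefore do not show a difference between conditions: DOG1 was called lower after heat shock (-0.49) and not in unstressed cells (-0.11), and ACC1 was called higher after heat shock (0.45) and not in unstressed cells (0.17). The median standard error of this difference was 0.14 on the log2 scale.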

How the data were processed

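RNA-seq of 24 yeast libraries was used as deposited, and the 8 heat-shocked RNeasy and Direct-zol libraries are the ones described. The authors trimmed reads with Trimmomatic, aligned them with STAR to the yeast genome (sacCer3) and computed TPM with RSEM. The deposited TPM cover 6685 transcripts and are not scaled between libraries. A table of the authors' own fold changes and p-values was not used. Whether counting used strand is not given in the sources used here, and 0 columns of other samples were left out.

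TPM were divided by factors from a trimmed mean of log ratios (30% of ratios and 5% of levels trimmed at each end). Transcripts with a mean of at least 1 TPM in 1 sample type were kept, 6137 in all, and converted to log2 after adding 1 TPM. Each was tested with limma 3.58.1 in R 4.3.3, with factors for 6 sample types and for the culture over all 24 libraries and a mean-variance trend, at a Benjamini-Hochberg FDR under 0.01. The replicate factor follows the study's methods, in which each culture was split between the isolation methods. The term is shared by heat-shocked and unstressed samples, so culture differences present after heat alone stay in the error. Fitted within each treatment, it pairs the kits among heat-shocked samples, and 424 transcripts were then called instead of 272. A transcript not called here may therefore be called with that pairing. Deviations from the group means correlated between same-numbered kit libraries at r = 0.59, 0.27, 0.35 and 0.02, with a mean of 0.31. Between different numbers the mean was -0.10 and the highest 0.28. Deviations sum to 0 within a group, so the -0.10 follows largely from the 0.31 and is no separate reference. The fit was tested on simulated TPM before use.

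ORF length, GC content, overlaps and shared 50-base sequences came from the RefSeq genome of the same build (R64), which lists 5767 of the tested transcripts and leaves 370 without an annotated ORF. Annotation was handled with Python 3.11.15 and Biopython 1.88. Hydrophobic windows are 19 residues with a mean hydropathy of at least 1.6. Genes were named by this rule: among called transcripts with the same sign in the 4 pairs and a mean of at least 10 TPM, the 10 highest and 10 lowest log2 fold changes and the 5 most abundant, and per gene list the 2 called members with the largest change or else the most abundant member. The members and lists were chosen with earlier results of these data known, and lists are given by counts and medians without a test. The lists of mitochondrially encoded transcripts, noncoding RNA genes and 2-micron plasmid genes had no member in the table. Alternatives were other scalings, pseudocounts of 0.1 and 5 TPM, no filter or a filter of 5 TPM, other replicate terms, the 8 libraries alone, no trend, each replicate left out and, chosen after seeing the data, each heat-shocked kit library left out, removal of length or GC trends and ORFs with unique sequence alone.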

Additional observations from a re-analysis of the deposited data

Results flagged for a closer look

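Among the named genes, groups of 4 libraries were searched for 1 library far from the other 3, and 10 of 119 groups had one, where chance gives about 1 in 20. In RNeasy libraries these were YNL054W-A, with 30.8 scaled TPM in replicate 3 and 5.11 to 7.53 in the others, IRA2, with 44.0 in replicate 1 and 58.4 to 60.8 in the others, SCS2, with 405 in replicate 4 and 457 to 463 in the others, RSM18, with 185 in replicate 3 and 216 to 222 in the others, and GAS3, with 51.4 in replicate 1 and 48.5 to 48.8 in the others. In Direct-zol libraries they were CYS3, with 378 scaled TPM in replicate 1 and 476 to 493 in the others, PDA1, with 443 in replicate 3 and 491 to 497 in the others, YIP4, with 88.7 in replicate 2 and 80.4 to 81.1 in the others, TEL1, with 8.94 in replicate 1 and 6.41 to 6.83 in the others, and YGR161W-B, with 28.8 in replicate 1 and 25.2 to 25.6 in the others.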

How the results depend on the processing

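The count of 272 transcripts (226 higher and 46 lower in RNeasy) was 462 without scaling (455 higher, 7 lower), 424 with the replicate block within treatment (154 lower), and 168 when only the 8 libraries were fitted with a replicate block (121 higher). Among the 272 were 233 of the 462, 269 of the 424 and 127 of the 168. With a replicate left out it was between 83 and 155, with 82 to 150 higher and 1 to 20 lower, and with a single library left out, chosen after seeing the data, 157 to 251, with 150 to 216 higher and 7 to 58 lower. Without the replicate block 251 were called, and 233 of these were among the 272. With the length trend removed 33 were called (21 higher, 12 lower), with the length and GC trends removed 27 (20 higher, 7 lower), and with the GC trend alone removed 226, of which 23 were lower. The median over all transcripts was 0.12 without scaling, -0.014 with quantile normalization and -0.012 with the 8 libraries alone, against -0.03. ORFs of 2400 to under 4800 bases had 281 higher calls without scaling and 45 with the 8 libraries alone, against 121, and 25 to 68 when 1 culture was dropped. The longest class had 48 to 72. In unstressed cells 239 were called. The difference between conditions had 0 calls under every alternative run. All 272 transcripts kept their sign under the other scalings, pseudocounts, filters and replicate terms, the 8 libraries alone, no trend and each replicate left out, wherever they were tested, and 76 of the 226 higher and 1 of the 46 lower stayed past the threshold without each replicate in turn.

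Of 43 named genes that were called, 30 stayed past the threshold without scaling, 29 with the 8 libraries alone, 34 with quantile normalization and 39 without the block. Uncalled genes near 0 turned positive without scaling or with quantile normalization: RSM18 (0.11 and 0.064), NOP10 (0.086 and 0.10), SSA4 (0.10 and 0.21), HXT7 (0.16 and 0.26), DIP5 (0.14 and 0.21), PMA1 (0.051 and 0.095) and SUI1 (0.0098 and 0.059). With the 8 libraries alone HXT7 was 0.020 and DIP5 0.0012, and when 1 culture was dropped HXT7 ranged from -0.070 to 0.060 and DIP5 from -0.053 to 0.0057. TPM hold no depth, so the precision of low transcripts is known only from the replicates.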

Other observations

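Transcripts just inside the FDR threshold were TUS1 (log2 fold change 0.29), LAA1 (0.58) and LEC1 (0.31), each with an adjusted p of 0.0097, and those just outside were HTC1 (-0.41), LYS21 (-0.33) and YDR094W (-0.91), with adjusted p from 0.010028 to 0.010129.

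ORFs in more than 1 piece (an intron or a frameshift), 296 of those tested, had a median of -0.13 and 16 calls higher and 4 lower, against -0.03 for the 5471 ORFs in 1 piece. Transcripts without an annotated ORF, 370 in all with a median level of 2.21 TPM, had a median of -0.16 and 1 call, YLR154W-E.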
